A study of Saccharomyces cerevisiae with 32 samples.

Results

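The arrays described here are 4 samples of a yeast culture taken at phases 46.8° to 84.2° of its metabolic cycle, set against the 4 samples that directly preceded them, at 356.9° to 34.3°. They were chosen by the sampling times in the labels, 10.27 to 10.47 h against 10 to 10.2 h, and make up 8 of the 32 arrays of the series. All 5377 Saccharomyces cerevisiae genes measured above background were tested. The former 4 are called the later arrays below and the latter 4 the earlier arrays.

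The study followed 1 continuous culture of the haploid MATa laboratory strain CEN.PK113-7D as it went through an oscillation of about 2 h, and hybridised RNA sampled every 4 min to Affymetrix Yeast Genome 2.0 arrays, 1 array per sample. All 8 arrays come from that culture, held at pH 4.0 and 30 °C and diluted at 0.06 to 0.086 per h, with no treatment and no altered gene named in the labels. The samples of a window are therefore consecutive time points and not replicate cultures, and every p-value below measures the separation of the windows against the spread of levels within them.

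Yeast in dense continuous culture can alternate between a phase of high respiration, in which ribosome and protein synthesis genes are expressed, and phases of low respiration, in which cells divide and then express genes of stress resistance and storage carbohydrate use. In each division cycle, G1 cyclins activate the transcription factors SBF and MBF, which switch on genes for budding, DNA replication and spindle pole duplication. Haploid MATa cells also express a receptor for the pheromone of the opposite mating type, and the kinase cascade below it drives genes for cell adhesion, cell fusion and arrest in G1.

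The working name of this interval, entry into a burst of biosynthesis, was set against the levels of the ribosome assembly genes, and those levels went against it. The mean log2 level of 62 genes of the small subunit processome, the particle that assembles the small ribosomal subunit, was 11.32, 11.73, 12.13 and 12.32 in the earlier arrays and 12.29, 11.97, 11.20 and 10.12 in the later arrays. The highest mean of all 32 arrays thus lay at 34.3°, before the later arrays began. The large subunit, snoRNP and RNA polymerase I and III lists were highest there too. Several other lists of biosynthesis were highest at 46.8°, the first of the later arrays. They included cytosolic ribosomal proteins, aminoacyl-tRNA synthetases, translation factors, tRNA modification, other amino acid synthesis, and purine and pyrimidine synthesis. By share of members called higher, the mating pheromone response (48.4%), cohesin (45.5%) and G1 (34.3%) lists stood highest. By share called lower, the pentose phosphate pathway (23.1%), amino acid permeases (14.3%), hexose transporters (14.3%) and stress genes (13.5%) did.

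Between the windows, 334 genes differed at a limma adjusted p under 0.05, 6.21% of those tested. Of these, 255 (4.74%) were higher in the later arrays and 79 (1.47%) were lower, and the median difference over all genes tested was 0.02 on the log2 scale. A difference of at least 2-fold was seen for 35 of the higher genes (0.651%) and 27 of the lower genes (0.502%). The signals of the windows did not overlap for 670 genes higher (12.5%) and 247 genes lower (4.59%) in the later arrays. Of all genes, 1279 had an unadjusted p under 0.05, and the smallest adjusted p was 0.0173, for YPL152W-A. The arrays measure RNA of the whole culture, so more cells that express a gene and more RNA per cell cannot be told apart.

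These counts depended on single arrays. Leaving out any of the arrays at 356.9°, 9.4°, 21.8°, 59.2° or 71.7° left 0 calls with 887 to 1094 genes at an unadjusted p under 0.05, leaving out that at 84.2° left 1, and leaving out that at 34.3° or 46.8°, beside the border of the windows, gave 512 or 505. All 334 genes kept their direction in each of these fits. With the running number in the array labels as a term, limma called 0 genes, with 513 at an unadjusted p under 0.05. The numbers were 21, 18, 25 and 10 for the earlier and 14, 16, 3 and 6 for the later arrays, mostly higher in the earlier ones, so that order and window are partly confounded. The direction of the balance rested on the scaling of the arrays. The deposited values without scaling, with a median shift of -0.20 over all genes, gave 38 genes higher and 335 lower, and scaling by the poly-A controls, with a shift of 0.23, gave 170 higher and 27 lower. All 334 genes kept their direction without scaling, with 113 still called, and 332 did with the poly-A scaling, with 165 still called.

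The median deposited signal of S. cerevisiae probe sets was 1798 to 2227 in the earlier and 1524 to 1869 in the later arrays. Poly-A controls, RNAs added to each sample before labelling, had a geometric mean of 213.5 to 264.9 in the earlier and 162.2 to 190.9 in the later arrays, and the windows did not overlap. The ratio of ACT1 3′ to 5′ signal, a sign of RNA integrity, was 1.19 to 1.31 and 1.19 to 1.27. Median S. pombe probe set signals, the background on these dual-species arrays, were 7.1 to 9.8 and 7.6 to 9.4. The part of the control signal in the results was not tested.

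**Figure D1:**
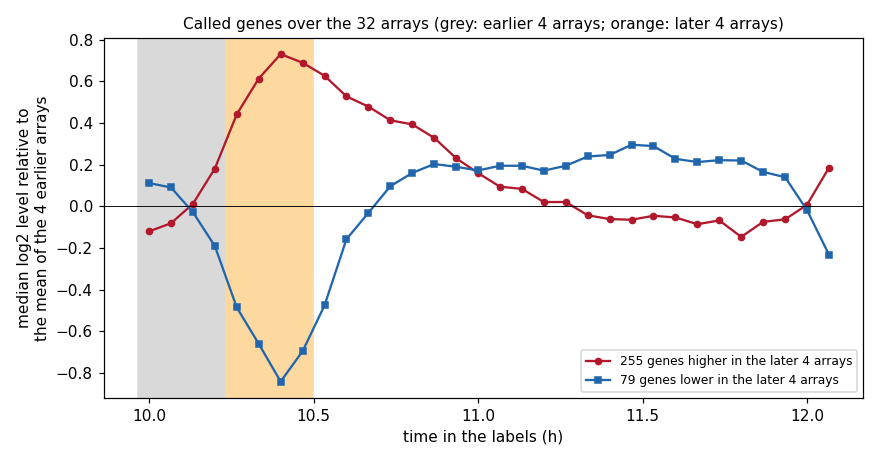
Median log2 level of the 255 genes called higher (red circles) and the 79 called lower (blue squares) in the later arrays, relative to each gene's mean over the 4 earlier arrays (y axis), against the sampling time in h (x axis), in all 32 arrays. The red line is highest, at 0.73, and the blue line lowest, at -0.84, in the array at 71.7°, inside the orange window for which the genes were selected.

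Relative to the mean of the earlier arrays, the median level of the 255 higher genes was 0.44, 0.61, 0.73 and 0.69 in the later arrays on the log2 scale. That of the 79 lower genes was -0.49, -0.66, -0.84 and -0.70. The largest step between neighbouring arrays lay between 34.3° and 46.8° for 119 of the higher and 29 of the lower genes, between 21.8° and 34.3° for 66 and 17, and between 46.8° and 59.2° for 38 and 14. A call needs a difference between the windows that is large against the spread within them, which favours genes whose largest step lies at the border, so these counts describe the called genes only. Over all genes tested, each counted in the direction of its own difference, 11.9% had their largest step between 34.3° and 46.8° and 19.4% between 71.7° and 84.2°. The median step of the higher genes was 0.27 between 34.3° and 46.8° and -0.02 between 71.7° and 84.2°, where 140 of them were lower in the last array than in the one before. As a linear trend over the 8 arrays, 510 genes (9.48%) rose and 173 (3.22%) fell at a limma adjusted p under 0.05.

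**Figure D2:**
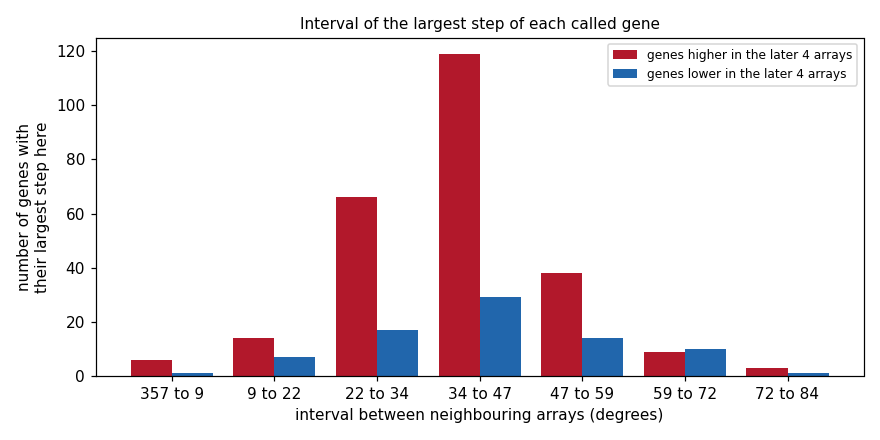
Number of called genes (y axis) whose largest step between neighbouring arrays fell in each of the 7 intervals between the 8 arrays (x axis, phases in degrees), for genes called higher (red) and lower (blue). The interval from 34 to 47° holds the most genes of both kinds, 119 and 29, and the last interval holds 3 and 1; the calls favour genes that step at the border of the windows, and over all genes tested that interval holds 11.9%.

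Over all 32 arrays, 162 of the 255 higher genes had their highest level in one of the later arrays, 84 of them in the array at 71.7°. Of the 79 lower genes, 61 had their lowest level there, 33 of them at 71.7°. In the next 4 arrays, at 96.6° to 134.0°, 99 of the higher genes had a mean above that of the later arrays and 16 had a mean below that of the earlier arrays. Of the lower genes, 62 were above their mean of the later arrays and 32 above that of the earlier arrays. Over all genes tested, 24.8% had their highest and 24.3% their lowest level in the later arrays. The called genes were selected for being high or low there, so their larger shares largely restate the selection and have no test.

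The last 3 arrays of the series lie 1 cycle later, within 1.93° of the phases of the first 3. Set against them, the same later arrays gave 331 genes higher (6.16%) and 116 lower (2.16%) at a limma adjusted p under 0.05. The ACT1 3′ to 5′ ratio was 1.63, 1.72 and 1.68 in these last 3 arrays, without overlap with the 1.19 to 1.27 of the later arrays, and its part in this comparison was not tested. Both comparisons share the later arrays, so they do not check each other. Against the earlier and against the last arrays, the log2 differences were 1.56 and 1.33 for FUS1, 1.62 and 1.28 for TOS2, 0.86 and 0.74 for POL30, and -3.28 and -2.88 for GRE1, all called in both. Other genes called against the earlier arrays were not called against the last ones, among them PAI3 (-1.86 and -1.01), GAS3 (0.52 and 0.18), CTS1 (0.43 and 0.11) and ESF1 (-0.45 and -0.20). Their limma adjusted p against the last 3 arrays was 0.211, 0.278, 0.422 and 0.481.

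The mating pheromone response list had the largest share of members called, 15 of 31 higher (48.4%, against 4.74% of all genes) and 0 lower. Its median was 0.50 on the log2 scale. The windows did not overlap for 21 members, all higher, where 12.5% of all genes tested were higher without overlap. FUS1, a membrane protein of the site of cell fusion, had normalised signals of 908, 1015, 1405 and 2339.7 in the earlier arrays and 3587, 3747, 4285 and 3959 in the later arrays. All later arrays were above all earlier ones, the array at 34.3° stood between them, and the level was highest of all 32 arrays at 71.7°. The difference was 1.56 ± 0.28 (log2, SE, 4 arrays against 4), or 2.94-fold higher (limma adjusted p = 0.0365). Its signals in the next 4 arrays were 3025, 2127, 1377 and 1023, of which the last was close to that at 9.4°.

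SST2, the GTPase-activating protein that turns the pheromone signal down, had signals of 828, 970.3, 1137 and 1984 and then 2565, 3115, 3027 and 2898. Its later arrays lay within 2565 to 3115 and did not overlap with the earlier ones, a 2.49-fold rise (log2 1.32 ± 0.25, limma adjusted p = 0.0384). PRM1, which acts in fusion of the plasma membranes, had signals of 314, 359, 436 and 846 and then 1222, 1194, 1467 and 1278, a 2.84-fold rise with most of the increase made by 46.8°. ASG7, an a-cell protein that dampens signalling through the G protein, and FUS2, a further cell fusion factor, still had higher signals at 84.2° than at 71.7°. Their signals were 1303, 1916, 2446 and 2619.8 and 852, 975, 1274 and 1346 in the later arrays, rises of 1.39 and 1.32 on the log2 scale. PRM10, a pheromone-regulated gene outside the list, had signals of 205, 258, 370.5 and 624 and then 782, 961, 1217 and 1217, a 3.08-fold rise (limma adjusted p = 0.0422).

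The mating genes that rose included those for adhesion and for the pheromone itself. AGA1, the anchor subunit of the a-agglutinin, picked out after its values were seen, went from 3049, 4169, 5055 and 7379 to 9732, 11159.6, 11352 and 11437, and AGA2, its binding subunit, rose by 0.96 on the log2 scale. BAR1, the protease that degrades alpha factor, rose by 0.82, STE6, the exporter of a-factor, by 0.43 and MFA1, a gene of the a-factor precursor, by 0.54. The receptor gene STE2 differed by 0.34 (limma adjusted p = 0.106) and MFA2, the other a-factor gene, by 0.14 (limma adjusted p = 0.184), and neither passed the test. The list's members ranged from -0.28 to 1.56.

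The strain's mating type was set against marker genes. The 7 MATa genes had signals of 638.1 (ASG7) to 14706 (STE2) over the 8 arrays, and 5 of the 7 rose. Of the 4 genes marking MATalpha cells, 0 passed the limma test, and 0 had an unadjusted p under 0.05. Set against the last 3 arrays of the series, SAG1 differed by -0.50 (limma adjusted p = 0.0222). MF(ALPHA)1, the main alpha-factor gene, had signals of 1225 to 2369, STE3 of 524.5 to 611.3, SAG1 of 726.7 to 820.3 and MF(ALPHA)2 of 49.4 to 119.7, and all 4 were above the background filter. Their part in the rise of the pheromone genes was not tested. Among 6 genes of meiosis, a program of diploid cells, IME2 rose by 0.94 (limma adjusted p = 0.0356, signals of 109.8 to 287.7), and the other 5 did not pass the test. No other cell type is named in the labels.

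**Figure D3:**
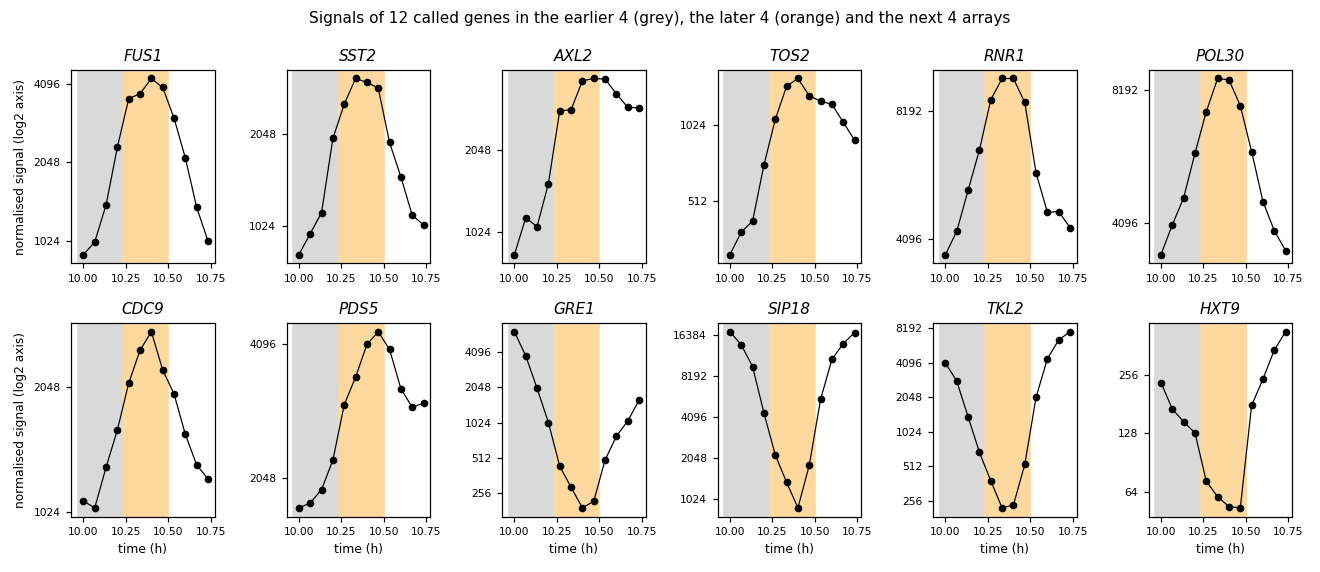
Normalised signals (y axes, log2 scale) of 12 called genes against sampling time in h (x axes) in the 4 earlier arrays (grey), the 4 later arrays (orange) and the next 4 arrays (white), 1 point per array. FUS1, SST2, RNR1 and POL30 turn down at or before the end of the orange window, while SIP18 and TKL2 are lowest inside it and close to or above their first level in the last array shown.

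Genes of G1 and Start, the point of commitment to division, rose in 12 of 35 members (34.3%, against 4.74% of all genes). No member was called lower, and the list's median of 0.73 was the highest of the 48 lists. TOS2, a bud neck protein of the polarity machinery, had signals of 313, 385, 426 and 711 and then 1079, 1460.5, 1569 and 1339. The level went up from array to array as far as 71.7°, the windows did not overlap, and the rise came to 3.08-fold (log2 1.62 ± 0.25, limma adjusted p = 0.0356). PLM2 and TOS4, related putative transcription factors, rose by 1.46 and 1.41 on the log2 scale. PLM2 had signals of 136, 181, 221 and 359 and then 457, 595, 629 and 681, with no overlap and its highest of 32 arrays at 84.2°. SVS1, a cell wall protein gene, rose 2.37-fold (limma adjusted p = 0.0356).

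Among the cyclins, CLN1, a G1 cyclin picked out after its values were seen, had signals of 1455, 1418, 1824 and 2530.1 and then 3359, 3791, 3947 and 3834, a 2.12-fold rise (limma adjusted p = 0.0356). CLN3, the G1 cyclin that acts first, was chosen in the same way and did not follow it. Its signals were 3108, 4093, 4251 and 3899 and then 3941, 3380.0, 2979 and 2063, a difference of -0.34 that did not pass the test (limma adjusted p = 0.376), and the windows overlapped. Of the kinases that link bud growth to mitosis, also named after their values were seen, SWE1, the inhibitor of Cdc28, rose 2.07-fold, and the septin-bound kinases GIN4, HSL1 and KCC4 rose 1.74-fold, 2.1-fold and 2.19-fold. KCC4 had signals of 879, 879.6, 1039 and 1285 in the earlier and 1769.8, 2294, 2735 and 2131 in the later arrays, and its windows did not overlap.

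In the list of replication genes, 14 of 57 members rose (24.6%, against 4.74% of all genes) and 0 fell, with a median of 0.35. POL30, the sliding clamp PCNA, had signals of 3467, 4049, 4664 and 5881 and then 7315, 8692, 8627 and 7541. Each of the first 6 arrays was above the one before, and the rise came to 1.81-fold (log2 0.86 ± 0.16, limma adjusted p = 0.0377). CDC9, the DNA ligase, rose 1.91-fold, with signals of 1089.9, 1049, 1312 and 1614 and then 2088, 2504, 2774 and 2246. TOF1, a checkpoint factor at paused forks, and PRI2, the large primase subunit, rose by 0.92 and 0.89 on the log2 scale. The 6 subunits of the Mcm helicase ring were not among the called members, with differences of 0.08 (MCM3) to 0.42 (MCM2). MCM10, a factor that activates the helicase and was singled out after its values were seen, differed by -0.55 and did not pass the test (limma adjusted p = 0.286).

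Deoxynucleotide synthesis had 3 of 11 members higher (27.3%, against 4.74% of all genes), with a median of 0.28. RNR1, the large subunit of ribonucleotide reductase, had signals of 3762, 4272, 5341 and 6647 and then 8728, 9799.6, 9799.6 and 8605, and 5857, 4732, 4755 and 4354 in the next 4 arrays. Its windows did not overlap, and the rise was 1.89-fold (log2 0.91 ± 0.17, limma adjusted p = 0.0382). CDC21, thymidylate synthase, and DUN1, the checkpoint kinase that acts on ribonucleotide reductase, rose 2.13-fold and 2.16-fold. DUN1 had signals of 942, 1090.4, 1225 and 1488 and then 1887, 2619.8, 3128 and 2655.

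DNA repair genes were split, with 8 of 42 higher (19%, against 4.74% of all genes) and 2 lower (4.76%, against 1.47%). The list's median of 0.07 turned to -0.22 in the deposited values without scaling. RAD53, the checkpoint kinase, rose by 0.92, RTT109, a histone acetyltransferase of newly made chromatin, by 0.88, and PMS1, of mismatch repair, by 0.85 on the log2 scale. RAD2, the nuclease of nucleotide excision repair, went the other way, with signals of 1061, 905, 1275 and 1036 in the earlier and 695, 534, 551 and 655 in the later arrays. Its windows did not overlap, and it was 1.75-fold lower (limma adjusted p = 0.0356).

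The cohesin list covers the ring that holds sister chromatids together, its loaders, and other factors such as PDS1 and ESP1. It had 5 of 11 members higher (45.5%, against 4.74% of all genes) and a median of 0.68. PDS5, which maintains cohesion, had signals of 1757, 1802, 1932 and 2250.2 and then 2996, 3455, 4093 and 4373, an increase through every array and a rise of 1.91-fold (log2 0.94 ± 0.14, limma adjusted p = 0.0356). PDS1, the securin, rose by 0.87, IRR1, a core subunit, by 0.73 and ECO1, the acetyltransferase that establishes cohesion, by 0.72 on the log2 scale. MCD1, the cleavable subunit, had the largest difference of the list, 1.19, and did not pass the test (limma adjusted p = 0.0748). Its signals of 862, 1138, 1763 and 2559.6 and then 3323, 3858, 3733 and 2516 overlapped between the windows, since it increased within the first and turned down at the end of the second; it was named after its values were seen.

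The 10 histone genes were all above 0, with a median of 0.37, and 1 passed the test (10%, against 4.74% of all genes). HHT1, for histone H3, had signals of 7789.7, 7387, 7411 and 8290.2 and then 9148, 10006, 11244 and 10701, a 1.33-fold rise, and 10842, 11758, 12191 and 12910.1 in the next 4 arrays. The mean histone level was at its highest of 32 arrays after the next 4 arrays, later than the other lists of DNA synthesis in the plot of list profiles. Probes for a histone gene can bind transcripts of its near-identical copy, so the single genes are uncertain.

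Spindle pole body and kinetochore genes rose in 12 of 47 members (25.5%, against 4.74% of all genes) with 0 lower. The median was 0.31. SPC29 and SPC42, of the core of the spindle pole body, rose 1.9-fold and 1.82-fold. SPC42 had signals of 545, 592, 728 and 876 and then 1124, 1262, 1362 and 1182, with no overlap. SPC97, of the gamma-tubulin complex, and SLI15, the partner of the Aurora kinase, rose by 0.80 and 0.79 on the log2 scale. By contrast, 1 of 39 genes of mitosis and mitotic exit was called higher (2.56%, against 4.74% of all genes) and 0 lower. It was CDC27, a subunit of the anaphase-promoting complex, which rose by 0.47. The list's median was 0.08, and -0.20 without scaling.

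**Figure D4:**
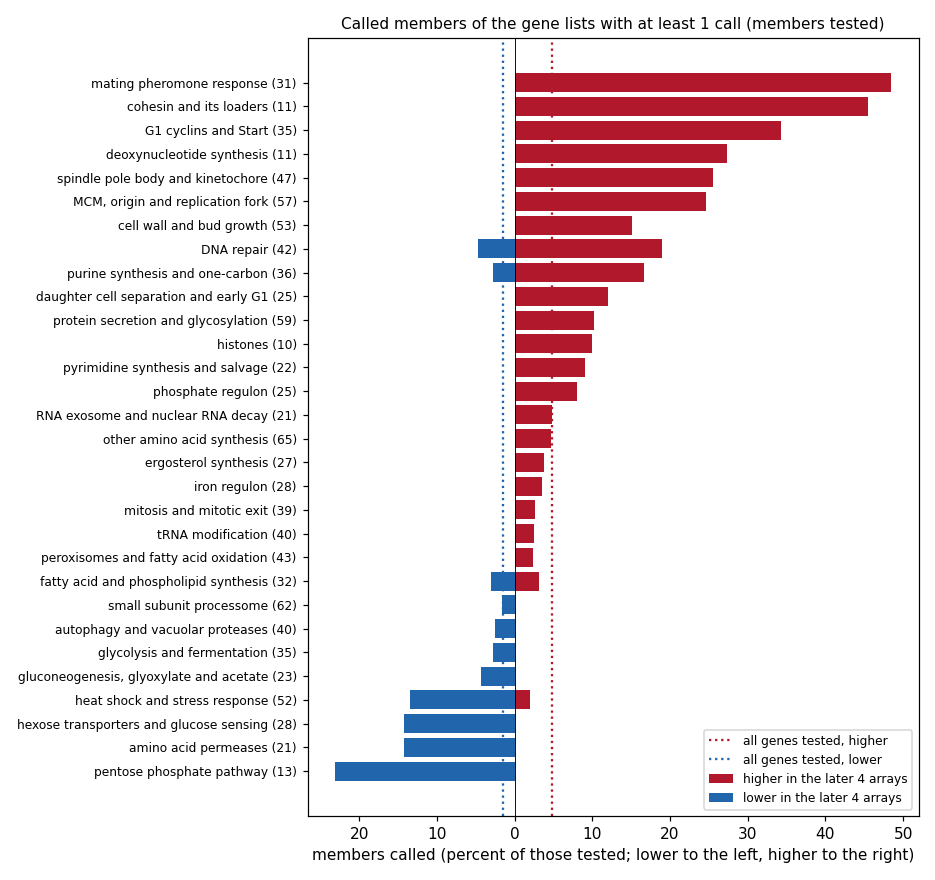
Members called higher (red, to the right) and lower (blue, to the left) in the later arrays, in percent of the members tested (x axis), for each gene list with at least 1 call (y axis, members tested in brackets). Dotted lines mark the 4.74% and 1.47% of all genes tested. Mating pheromone response (15 of 31) and cohesin (5 of 11) stand at the top, and the pentose phosphate pathway (3 of 13) at the bottom.

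Genes for the growing bud's surface were also among those that rose. Of 53 genes of cell wall and bud growth, 8 were higher (15.1%, against 4.74% of all genes) and 0 lower. The list's median was 0.15. AXL2, the landmark protein of axial budding, had signals of 847, 1157, 1074 and 1547 and then 2865, 2889, 3693 and 3767. All later arrays stood clear of the earlier ones, with the largest step between 34.3° and 46.8°, a 2.9-fold rise (log2 1.53 ± 0.19, limma adjusted p = 0.0356). OCH1, the Golgi mannosyltransferase that starts outer chains, MSB2, a mucin of the filamentous growth pathway, and GAS3, of a glucan-remodelling family, rose by 0.85, 0.56 and 0.52 on the log2 scale. In protein secretion and glycosylation, 6 of 59 were higher (10.2%, against 4.74% of all genes) and 0 lower. The median of 0.12 turned to -0.07 without scaling. The 6 included the protein O-mannosyltransferases PMT1 (0.62) and PMT4 (0.54) and the lipid-linked oligosaccharide enzymes ALG7 (0.57) and ALG2 (0.44).

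In the list of daughter cell separation and early G1, 3 of 25 rose (12%, against 4.74% of all genes), with a median of 0.26. CHS1, the chitin synthase of septum repair, rose 1.81-fold, with signals of 2421, 2350.4, 2573 and 3017 and then 3816, 4685, 5107 and 5187. PIR1, a cell wall protein, and CTS1, the chitinase that parts mother and daughter, rose by 0.69 and 0.43 on the log2 scale, and both had higher levels still in the next 4 arrays.

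Among biosynthetic enzymes, the share of members called higher differed between the lists. In purine synthesis and one-carbon metabolism, 6 of 36 rose (16.7%, against 4.74% of all genes) and 1 fell (2.78%, against 1.47%), with a median of 0.14. MTD1, a dehydrogenase of cytosolic folates, had signals of 3103, 3603, 4417 and 5812 and then 7818, 8279.8, 7315 and 6717, a 1.82-fold rise. GCV1, of glycine cleavage, and ADE8, of purine ring synthesis, rose by 0.82 and 0.69, and FOL3, of folate synthesis, fell by 0.52 on the log2 scale. In pyrimidine synthesis and salvage, URH1, the uridine nucleosidase, rose by 0.82 beside CDC21, 2 of 22 in all (9.09%). That list's median of 0.11 turned to -0.07 without scaling. Among 65 other amino acid synthesis genes, ARG7 (0.56), LYS1 (0.46) and HIS5 (0.45), enzymes of arginine, lysine and histidine synthesis, rose and 0 fell, a share of 4.62% that is no higher than the 4.74% of all genes. In sulfate assimilation, methionine and cysteine synthesis, 0 of 36 passed the limma test, and the median was -0.07. There, 3 higher and 3 lower had an unadjusted p under 0.05. Such a p was seen for 1279 of all 5377 genes tested.

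Amino acid permeases were lower, with 3 of 21 called (14.3%, against 1.47% of all genes). Their median of -0.32 kept its sign under each scaling. TAT1, a permease for tyrosine and other amino acids, had signals of 393, 578, 607 and 551 in the earlier and 328, 212, 247 and 269.9 in the later arrays, 2.01-fold lower (limma adjusted p = 0.0365). BAP3, for branched-chain amino acids, fell by 0.86 and AGP1, a permease of broad range, by 0.44 on the log2 scale. AGP1 went on to signals of 3098, 2257, 1734 and 1958 in the next 4 arrays, well under its later arrays.

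No list of the protein synthesis machinery had more than 1 call. Of 127 cytosolic ribosomal proteins, 20 cytosolic aminoacyl-tRNA synthetases, 36 translation factors, 71 large subunit assembly genes, 22 snoRNP genes and 35 genes of RNA polymerases I and III, 0 passed the limma test. At an unadjusted p under 0.05 there were 2 of the ribosomal proteins, 1 of the synthetases, 0 of the translation factors, 1 of the large subunit genes, 0 of the snoRNP genes and 5 of the polymerase genes. Over all 5377 genes tested there were 1279. The medians of the ribosomal proteins, synthetases and translation factors were 0.04, 0.16 and 0.04, and the last turned to -0.03 without scaling. The small subunit processome had 1 call, 1.61% of its members lower against 1.47% of all genes. It was ESF1, a nucleolar factor of rRNA processing, which fell by 0.45 (limma adjusted p = 0.0496). ESF1 did not share the list's course. Its signals were 2288, 2044, 2375 and 2517 and then 1885, 1675, 1433 and 1749.9, and 1409.8, 2035, 2141 and 2779 in the next 4 arrays. TAD2, of the tRNA adenosine deaminase, rose by 0.74 among 40 genes of tRNA modification. AIR2, of the complex that feeds RNA to the exosome, rose by 0.66 among 21 exosome and RNA decay genes. These single calls were 2.5% and 4.76% of their lists, against 4.74% of all genes.

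The ribosome assembly genes went up within the first window and down within the second, and the medians of their differences between the windows were -0.49 for the small and -0.40 for the large subunit, negative under each scaling. The snoRNP and RNA polymerase I and III lists had medians of -0.22 and -0.16, which turned to 0.13 and 0.09 with the poly-A scaling. Within the earlier arrays, 29 of the 62 small subunit processome genes were at least 2-fold higher at 34.3° than at 356.9° and 0 were 2-fold lower, against 4.87% higher and 7.42% lower of all genes tested. Within the later arrays, 59 of 62 were at least 2-fold lower at 84.2° than at 46.8°, with a median change of -2.23 on the log2 scale, against 10% of all genes. Of the 71 large subunit genes, 69 were at least 2-fold lower at 84.2° (median -1.99), as were 20 of the 35 genes of RNA polymerases I and III and 29 of the 40 tRNA modification genes. Ribosomal proteins changed far less, with 2 of 127 at least 2-fold lower and a median of -0.06. These changes rest on 1 array at each end and have no test.

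**Figure D5:**
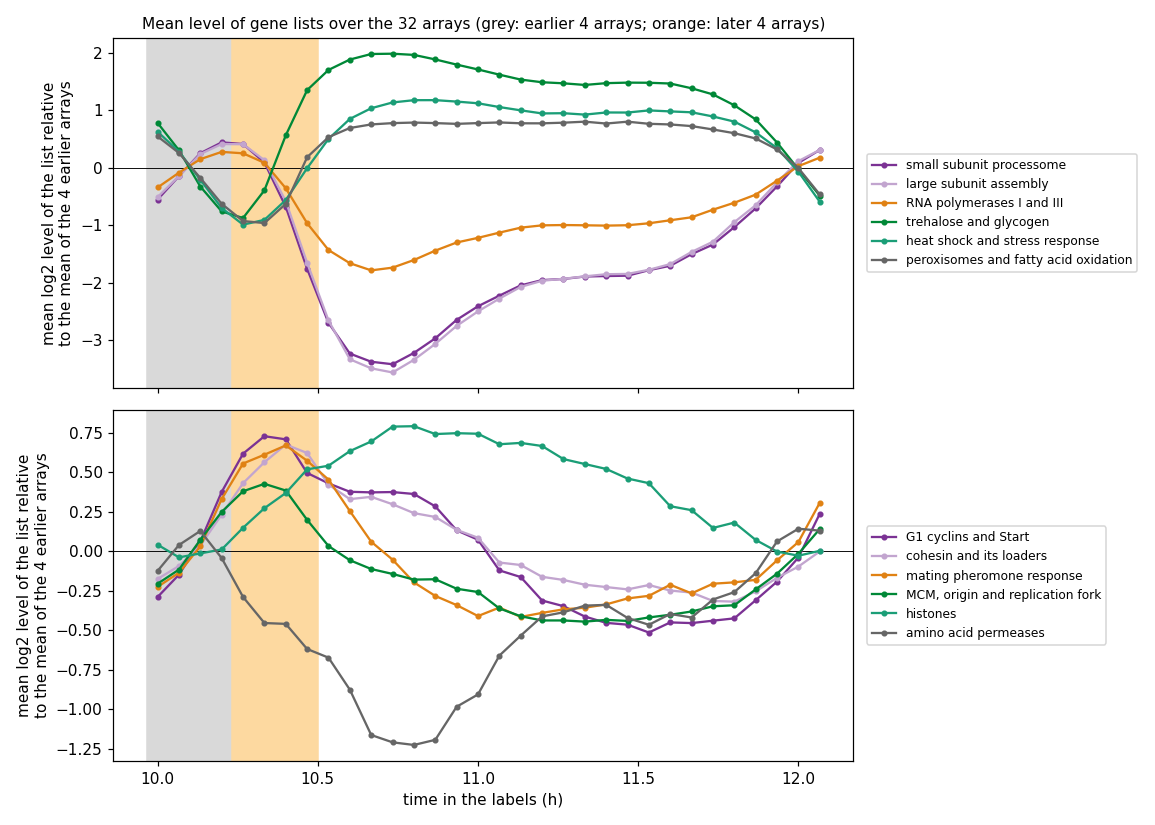
Mean log2 level of 12 gene lists relative to their mean in the 4 earlier arrays (y axes) against sampling time in h (x axes), in all 32 arrays. In the upper panel, ribosome assembly lists go from above to far below the earlier mean inside the orange window while trehalose and glycogen genes go the opposite way, and in the lower panel the G1, cohesin, pheromone and replication lists crest inside it and histones later.

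Genes of stress protection were the list with the most members called lower. In the heat shock and stress response list, 7 of 52 were lower (13.5%, against 1.47% of all genes) and 1 higher (1.92%, against 4.74%). The median of -0.36 kept its sign under each scaling. GRE1, a hydrophilin that protects against drying, had signals of 6129, 3810.2, 2013 and 1027 in the earlier and 435, 288, 192 and 219 in the later arrays. It was lower in each array than in the one before up to 71.7°, and its fall of 3.28 ± 0.55 on the log2 scale, 9.73-fold, was the largest of all called genes (limma adjusted p = 0.0356). SIP18, a related hydrophilin, had signals of 17310.2, 13853, 9586 and 4373 and then 2153, 1352, 877 and 1804, 6.83-fold lower, and 5505, 10826, 14146 and 17064 in the next 4 arrays. The last of these was close to its first level.

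SSA3, a stress-induced Hsp70 chaperone, fell 5.24-fold, with signals of 13006, 9839, 6486 and 3635 and then 2114, 1539.8, 1169.9 and 1044, still its lowest at 84.2°. PAI3, the inhibitor of the vacuolar proteinase A, fell 3.63-fold. The small heat shock protein genes HSP12 and HSP26, named after their values were seen, fell 2.13-fold and 2.28-fold. HSP26 had 16062, 17350.2, 17267 and 13469.6 and then 7954, 5648, 5298 and 10142. CTT1, the cytosolic catalase, named in the same way, had signals of 1490.5, 839, 439.6 and 246 and then 166, 204, 229 and 343, and the windows overlapped. Its difference of -1.41 did not pass the test (limma adjusted p = 0.163).

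The pentose phosphate pathway, which makes NADPH and ribose, has pairs of alternative enzymes, and the less used form of several fell. TKL2, the second transketolase, had signals of 4093, 2831, 1383 and 677 and then 381, 221, 235 and 531, 5.64-fold lower (log2 -2.49 ± 0.58, limma adjusted p = 0.0476). NQM1, the second transaldolase, fell 4.39-fold and GND2, the second 6-phosphogluconate dehydrogenase, 3.56-fold. These were 3 of 13 members (23.1%, against 1.47% of all genes), with 0 higher. The list's median of -0.04 turned to 0.16 with a common median and 0.34 with the poly-A scaling. In the next 4 arrays, TKL2 reached 2061, 4459.7, 6514 and 7673.

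Hexose transporters and glucose sensors had 4 of 28 lower (14.3%, against 1.47% of all genes) and 0 higher. The list's median of -0.13 turned to 0.10 with the poly-A scaling. HXT9 had signals of 233, 170.2, 147 and 128 and then 72.3, 60.3, 53.5 and 52.8, 2.73-fold lower (limma adjusted p = 0.0356), and 178, 243, 343 and 426 in the next 4 arrays. It has near-identical relatives among the hexose transporters, so its signal may include theirs. HXT3, a low-affinity transporter, had signals of 1799, 2250.2, 2269.8 and 1910.3 and then 1568, 1181, 943 and 1074, a fall of 0.81 on the log2 scale. HXT14 fell by 0.77, and RGT2, the sensor of high glucose, by 0.47.

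Single members of other carbon and breakdown lists fell. FDH1, formate dehydrogenase, had signals of 16466, 14439, 12016 and 7880.3 and then 5356, 3471, 2021 and 1285, lower in each array than in the one before, 4.64-fold in all (limma adjusted p = 0.0409). It was the 1 call among 23 genes of gluconeogenesis, glyoxylate and acetate metabolism (4.35%, against 1.47% of all genes). ENO1, an enolase, fell by 0.59 among 35 glycolysis and fermentation genes. PRC1, vacuolar carboxypeptidase Y, fell by 0.76 among 40 autophagy and vacuolar protease genes, in each case with 0 higher. These single calls were 2.86% and 2.5% of their lists, against 1.47% of all genes. The limma test was passed by 0 of 39 proteasome genes, 25 genes of the tricarboxylic acid cycle, 43 of the respiratory chain and ATP synthase and 73 mitochondrial ribosomal proteins. At an unadjusted p under 0.05, 0 of them were higher and 2 lower, 1 and 4, 0 and 1, and 9 and 1. Of all 5377 genes tested, 1279 had such a p.

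Of the 15 largest falls, 6 were in no list. HEF3, the second form of translation elongation factor 3, had signals of 4485, 2528, 1622 and 947 and then 559, 328, 289 and 472, 5.12-fold lower (limma adjusted p = 0.0391). PMA2, the minor plasma membrane proton pump, had signals of 4112, 3058, 1463 and 925 and then 546, 379.8, 413 and 519, 4.41-fold lower. Both pair with a main form of the same protein. ETR1, a mitochondrial enoyl reductase of fatty acid synthesis, fell by 1.57 and OYE3, an old yellow enzyme, by 1.41 on the log2 scale. The cell wall mannoprotein gene HPF1 fell by 1.36 and YOL038C-A by 1.41. YOL038C-A had signals of 45.6, 22.3, 24.7 and 38.1 in the later arrays. Its mean there, 5.06 (log2), was near the background filter of 4.44, so its fall is uncertain.

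Of the 15 largest rises, PRM10 and 5 others were in no list. YJL047C-A had signals of 105, 107, 94.6 and 198 and then 372, 479, 444 and 302, the largest called rise at 3.23-fold (limma adjusted p = 0.0356). YPL152W-A had signals of 40.7, 45.6, 39.7 and 55.5 and then 149.7, 140.1, 144 and 115. It stepped up between 34.3° and 46.8° and was the gene with the smallest adjusted p of all, at 2.96-fold. YJL107C rose 2.83-fold, PTH4 2.55-fold and ESC8, a factor of gene silencing, 2.46-fold. YJL107C went from 76.4, 96.1, 111 and 186 to 273, 309, 401 and 304. Leaving the reference genes aside, 107 of the 255 higher and 25 of the 79 lower genes were members of a list.

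Storage carbohydrate, peroxisome and many stress genes turned inside the later window. In the first and second of these lists the members with the largest differences missed the test. The mean log2 level of 25 trehalose and glycogen genes was 11.23, 10.76, 10.13 and 9.69 in the earlier arrays and 9.58, 10.06, 11.02 and 11.80 in the later arrays. Within the later arrays 20 of the 25 were at least 2-fold higher at 84.2° than at 46.8° (median 2.29), and between the windows 0 of 25 passed the limma test and 0 had an unadjusted p under 0.05. GSY1, a glycogen synthase picked out after its values were seen, had signals of 785, 516, 251 and 173 and then 156, 599.8, 2261 and 3888, a difference of 1.39 ± 1.02 with overlapping windows (limma adjusted p = 0.462). Of the 43 genes of peroxisomes and fatty acid oxidation, 21 were at least 2-fold higher at 84.2° than at 46.8°, as were 24 of the 52 stress genes, against 9.93% of all genes. INP1, which retains peroxisomes in the mother cell, was the 1 call of the peroxisome list and rose by 0.39. That is 2.33% of the list, against 4.74% of all genes.

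In all, 125 genes differed by at least 2-fold and were not called, 98 of them lower and 27 higher, and 23 of the 125 had windows that did not overlap. The median SD within a window was 0.92 for these genes, 0.18 for called genes and 0.21 for all genes tested. The following were named after their values were seen. AQR1, a plasma membrane transporter, had signals of 996, 2242, 3503 and 2399.6 and then 1033, 418, 95.4 and 48.4, a difference of -3.28 ± 0.94 (limma adjusted p = 0.0797) with its lowest of 32 arrays at 84.2°. FOX2 and POT1, of fatty acid beta-oxidation, differed by -2.48 and -2.41 (limma adjusted p = 0.101 and 0.0817), and CIT3, a mitochondrial citrate synthase, by -2.34 (limma adjusted p = 0.0535).

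FOX2 had signals of 11784, 8743, 5511 and 2139 and then 895, 544, 597 and 4265, so that its last later array was above its last earlier one. RGI1, a gene of respiratory growth, had signals of 1993, 1258, 652 and 696 and then 1099, 3295, 7523 and 12939, a difference of 2.07 (limma adjusted p = 0.155). These genes changed direction or kept moving within a window, and a mean over 4 arrays does not describe their course.

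Few calls fell in the remaining lists, beside 4.74% higher and 1.47% lower of all genes. PHO89, a phosphate transporter, and PHO80, the cyclin that represses the phosphate regulon, rose by 0.80 and 0.43 among 25 phosphate genes (8%). FRE2, a ferric reductase, rose by 0.52 among 28 genes of the iron regulon (3.57%). ERG4, of the end of ergosterol synthesis, rose by 0.62 among 27 (3.7%). In fatty acid and phospholipid synthesis, PSD1, phosphatidylserine decarboxylase, rose by 0.62. INO1, inositol phosphate synthase, fell by 0.32, which turned to 0.09 with the poly-A scaling. Each was 3.12% of that list. The shares higher in the iron, ergosterol and phospholipid lists were under that of all genes. Of the 10 common reference genes, 0 passed the limma test and 3 had an unadjusted p under 0.05, and their differences ranged from -0.23 (PGK1) to 0.24 (TUB2), with ACT1 at -0.01, TAF10 at 0.20 and ALG9 at 0.20.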

How the data were processed

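Each array (Affymetrix Yeast Genome 2.0) carried total RNA of 1 sample of the culture. The authors deposited linear probe set intensities, and the submitters' processing notes name GCOS. Its settings and any scaling are not stated in the sources used here. Of 10928 probe sets, 5498 had 1 S. cerevisiae gene each, 1747 were from S. pombe, 213 were controls and 3470 were unnamed. Names came from the array annotation and a RefSeq table of S. cerevisiae genes, used for names only. Intensities were taken to log2 after adding 1.9, their 10th percentile, and quantile normalised over the S. cerevisiae probe sets of all 32 arrays; printed signals are these values on the linear scale. Each of 5449 genes was read from its brightest probe set. Testing was limited to the 5377 genes whose mean passed 4.44 (log2), a level that 95% of S. pombe probe sets lie under. Probe sets that can match several genes gave 110 of them, 6 called. Correlations between the 8 arrays lay between 0.860 and 0.990, and 0 columns were identical. The number of arrays limits the precision.

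The 4 later and 4 earlier arrays were compared with limma 3.58.1 in R 4.3.3, with p-values adjusted by Benjamini-Hochberg over all genes tested and a threshold of 0.05. The script was tested on simulated data. The members and the 48 gene lists (7 of 1784 entries not matched) were chosen with earlier results of these data known. Genes named are the 15 largest rises and falls with non-overlapping windows, up to 4 called members of each list, 10 reference genes and the cell type markers; others are said to be named after their values were seen. Alternatives were other scalings, pseudocounts, filters, probe set rules, model terms and comparison arrays, and leaving out each array. Promoter sequences were not analysed here.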

Additional observations from a re-analysis of the deposited data

Results flagged for a closer look

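In groups of 4 arrays, single arrays stood apart from the other 3 in 9 of the 388 groups looked at (2.32%), where chance flags about 1 in 20. All of these flags fall on the arrays beside the border of the windows. In the earlier arrays, the sample at 34.3° was high for SLI15, at 527.8 against 342.8 to 363.4 in the others, for PHO89, at 1256 against 902.3 to 933.4, and for YJL047C-A, at 197.9 against 94.6 to 106.9. It was also high for the mean log2 level of the daughter cell separation list, 11.48 against 11.26 to 11.30, and of the iron regulon list, 10.36 against 10.26 to 10.28. In the later arrays, the sample at 46.8° was low for CDC27, at 1428 against 1558 to 1581, for ECO1, at 1045 against 1214 to 1241, for AGA1, at 9732 against 11160 to 11437, and for ESC8, at 1360 against 1826 to 1857.

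Of the 3470 probe sets without a gene name, 416 had a mean above the background filter. Of these, 7 were higher and 3 lower in the later arrays at a limma adjusted p under 0.05, with log2 differences from -2.45 to 1.76. No comparison above uses them.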

How the results depend on the processing

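The 334 calls (255 higher, 79 lower) became 335 and 345 with pseudocounts of 8 and 32, 323 with no filter, 346 with a filter at the 99th percentile, 336 with probe sets averaged per gene and 322 without probe sets that can match several genes, and 321 to 334 of the 334 were still called. An intensity trend gave 333, of which 304 were among the 334. With arrays scaled to a common median there were 316, without scaling 373 (38 higher, 335 lower), and with poly-A scaling 197 (170 higher, 27 lower). Of the 334, these settings still called 249, 113 and 165, and the comparison with the last 3 arrays called 208. All 32 arrays in windows gave 1518 (959 and 559), time within each window as a term 459, a linear trend 683 (510 and 173), the last 3 arrays in place of the earlier ones 447 (331 and 116), the array running number as a term 0, and an added 2-fold limit 62 (35 and 27). Leaving out 1 array gave 0 to 512 calls, 0 to 377 higher and 0 to 141 lower. The cause of these shifts was not tested.

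Signs turned mostly for genes with differences near 0. With poly-A scaling these were ACT1 (0.417), FBA1 (0.337), PDA1 (0.295), PGK1 (0.192), TFC1 (0.164), UBC6 (0.110), INO1 (0.0889), IME1 (0.0820), SPS1 (0.0514) and MF(ALPHA)2 (0.0463). With a common median they were ACT1 (0.234), FBA1 (0.154), PDA1 (0.111), PGK1 (0.00828), SAG1 (-0.0162) and STE3 (-0.00786), and without scaling SAG1 (-0.259), STE3 (-0.251), ERP6 (-0.159), SPO13 (-0.119), ALG9 (-0.0314) and TAF10 (-0.0154). Against the last 3 arrays they were SAG1 (-0.502, limma adjusted p = 0.0222), IME1 (0.0997), SPS1 (0.0890) and TDH3 (-0.0872). With the running number they were ERP6 (-0.0464), SPS1 (0.0486), TFC1 (0.0210) and SAG1 (-0.00170), and as a trend IME1 (0.0169). Over the fits that left out 1 array, TFC1 ranged from -0.0550 to 0.0593, SPS1 from -0.0959 to 0.0208, ACT1 from -0.0276 to 0.0137, MF(ALPHA)2 from -0.337 to 0.0787, SAG1 from -0.00770 to 0.0490, IME1 from -0.152 to 0.0634 and ERP6 from -0.0521 to 0.265.

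The medians of 17 of the 48 lists changed sign with poly-A scaling, 12 without scaling and 8 with a common median. No paired analysis was possible because the labels carry no replicate numbers and the samples are consecutive. The promoter motif shares were not run. Signals near the S. pombe background limit what can be read for dim genes.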

Other observations

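Genes outside the lists were looked at after their values were seen, so no test of a group is given. The p24 proteins select cargo for transport from the endoplasmic reticulum. By limma, 4 of their 8 genes were higher in the later arrays, where 4.74% of all genes tested were. ERP3 had signals of 817, 879, 856 and 1064 in the earlier and 1366, 1772, 2299 and 2723 in the later arrays, a 2.19-fold rise. ERP2, ERP4 and EMP24 rose by 0.59, 0.40 and 0.38 on the log2 scale, and ERP1, ERP5, ERP6 and ERV25 differed by 0.18, 0.35, 0.12 and 0.20 without passing the test. Among enzymes that make activated mannose for glycosylation, SEC53, the phosphomannomutase, rose by 0.67, PMI40, the mannose-6-phosphate isomerase, by 0.46 and DPM1, the dolichol phosphate mannose synthase, by 0.32. PSA1, the GDP-mannose pyrophosphorylase, differed by 0.33 and did not pass the test (limma adjusted p = 0.12).

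SNZ1 and SNO1, which together make vitamin B6, rose 1.7-fold and 2.02-fold. SNO1 had signals of 231, 290.2, 344 and 421 and then 607, 691, 560.2 and 699, and its windows did not overlap.

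Within the earlier arrays, 230 of the 255 higher genes had a higher level at 34.3° than at 356.9°, and within the later arrays 216 were higher at 84.2° than at 46.8°. Of the 79 lower genes, 65 and 62 went down in the same way. The called genes were selected from these same arrays, so their directions within the windows are not independent of the selection. The share of all genes tested that went up or down by any amount was not counted. These counts therefore describe the called genes only and have no test.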
